A study of Homo sapiens with 6 samples.

Results

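The transcripts described here are those of 10 cytokine genes, IL6, IL11, LIF, IL1A, IL1B, IL1RN, IL18, IL32, IL7 and IL15, taken by gene name from a table of 62710 genes; each name matched 1 row. Gene expression had been measured by poly(A)-selected RNA-seq in 6 libraries of A549, an established human lung adenocarcinoma line. The control group held 3 libraries of untreated cells. The other 3 libraries came from cells exposed for 48 h to polystyrene microplastics (PS-MPs), 20 mg/mL by the labels. Both groups are the same line grown in medium with fetal bovine serum, and the labels name no other cell type in the cultures. Separate cultures per library are not stated, so the p-values reflect the variation among these 6 samples, part or all of which may be technical.

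Interleukins are secreted signalling proteins that epithelial cells, fibroblasts and leukocytes use to start, sustain or limit inflammation. Ligands of the IL-6 family (IL6, IL11 and LIF) act through receptors that share the signal transducer gp130 and activate JAK kinases and STAT3. Interleukin-1 alpha and beta and interleukin-18 belong to the IL-1 family, which signals through MYD88 to NF-kB; the IL-1 receptor antagonist encoded by IL1RN occupies the IL-1 receptor without starting a signal. Interleukin-1 beta and interleukin-18 are made as inactive precursors that caspase-1 cleaves, whereas the precursor of interleukin-1 alpha is already active. Interleukin-7 and interleukin-15 support lymphocytes through receptors with the common gamma chain, and IL32 encodes a cytokine that stands outside these families.

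Library totals ran from 17013293 to 21316451 counts, which put 3 counts at 0.137 to 0.177 CPM (read counts scaled to a common library total after TMM normalisation). In each group replicate 3 was the library least like the others: its correlation with its own group in log2 CPM was at most 0.985 among the controls and 0.984 among the PS-MP libraries, against 0.994 and 0.992 for replicates 1 and 2. Results are therefore given with all libraries and, where it matters, with both replicate 3 libraries left out. Genes used as markers of the A549 line were present, with a summed level of 11764 to 13234 CPM in controls and 12537 to 15417 CPM with PS-MPs. The 9 genes were EPCAM, CDH1, KRT7, KRT8, KRT18 and KRT19, with the enzyme genes AKR1B10, AKR1C1 and NQO1. These enzyme genes held a large part of the sum (means of 2138, 1358.5 and 1749 CPM in controls and 2638, 1701 and 1847 CPM with PS-MPs). EPCAM, a surface adhesion molecule of epithelial cells, was low at 2.47 ± 0.339 and 2.18 ± 0.373 CPM (mean ± SD, n = 3 per group).

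In cells given PS-MPs, 5 of the 10 cytokine transcripts were higher. Those of IL1A and IL6 rose about as much, 9.78-fold and 8.67-fold, followed by IL1B at 6.74-fold and IL32 at 4.44-fold, and IL18 rose 1.35-fold. LIF, IL15 and IL11 did not pass the test, and IL1RN and IL7 had too few counts to pass the filter. These calls come from edgeR's quasi-likelihood test fitted on all genes, with the Benjamini-Hochberg adjusted p under 0.05 over 15458 tested genes, of which 9.56% were called, 4.91% as higher and 4.65% as lower. With no filter on low counts the same 5 cytokines were called higher, beside 6.08% of 33003 genes called and 3.16% called higher. The groups did not overlap in the same 5 cytokines, all with the PS-MP libraries above, a pattern seen in 16.6% of the tested genes. No cytokine was called lower; at an unadjusted p under 0.05 edgeR gave 0 lower, and DESeq2 and limma-voom also called 0. In RNA from whole cultures, more cells making a transcript and more transcript per cell cannot be told apart. The filter on low counts asked for 0.530 CPM in 3 libraries, which IL1A met in 0 control libraries and IL1B in 1, so both entered the test through the PS-MP libraries in which they are high.

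**Figure D1:**
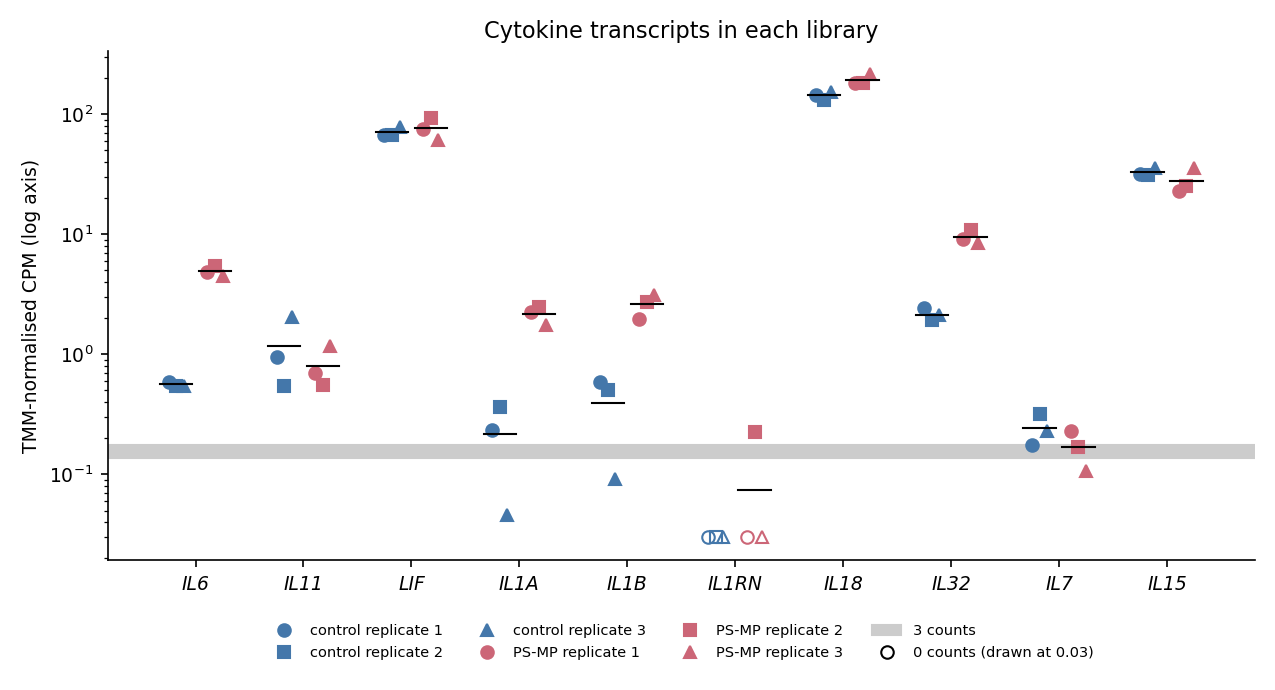
TMM-normalised CPM on a log axis for the 10 cytokine genes, 1 point per library (circle, square and triangle are replicates 1, 2 and 3), with the group mean as a black line. The grey band is the level of 3 counts (0.137 to 0.177 CPM) and open symbols are libraries with 0 counts. For IL6, IL1A, IL1B, IL32 and IL18 the 3 PS-MP libraries lie above the 3 controls.

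The DNA just upstream of a listed start is shown for IL6, IL32, IL1A and IL1B, which rose the most, and for IL11, which did not pass the test. The RefSeq promoter table (GRCh38.p14) held windows for 6 of the 10 genes (IL6, IL11, IL1A, IL1B, IL1RN and IL32). The 250 bases before the listed start nearest to the 5' end of each gene were searched on both strands for 3 short motifs. That start lay 1316 bases inside the counted gene span for IL6, so the IL6 window is within the span, and 106 and 37 bases inside for IL32 and IL1B. These were GGGA followed by 4 bases of any kind and CC (a core of NF-kB sites), TGANTCA (the AP-1 site) and TTNNGNAA (a loose form of the C/EBP site). Sequences are printed 5' to 3' along the strand of the gene, with NF-kB and AP-1 matches in capitals.
IL6 (chr7:22726950-22727199, plus strand): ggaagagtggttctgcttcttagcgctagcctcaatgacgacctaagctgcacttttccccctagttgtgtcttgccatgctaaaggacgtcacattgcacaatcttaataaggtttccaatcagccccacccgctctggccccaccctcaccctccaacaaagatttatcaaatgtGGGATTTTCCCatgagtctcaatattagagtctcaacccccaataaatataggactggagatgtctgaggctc
IL32 (chr16:3065153-3065402, plus strand): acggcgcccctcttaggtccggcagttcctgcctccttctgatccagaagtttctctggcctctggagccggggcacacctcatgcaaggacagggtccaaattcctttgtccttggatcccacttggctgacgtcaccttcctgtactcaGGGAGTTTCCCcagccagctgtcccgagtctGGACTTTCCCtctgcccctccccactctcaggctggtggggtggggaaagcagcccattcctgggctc
IL1A (chr2:112784494-112784743, minus strand): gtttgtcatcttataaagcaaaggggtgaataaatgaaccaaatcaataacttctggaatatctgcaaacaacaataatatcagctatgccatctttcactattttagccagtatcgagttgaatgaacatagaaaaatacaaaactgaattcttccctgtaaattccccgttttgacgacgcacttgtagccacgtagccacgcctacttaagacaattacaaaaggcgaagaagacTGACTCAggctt
IL11 (chr19:55370464-55370713, minus strand): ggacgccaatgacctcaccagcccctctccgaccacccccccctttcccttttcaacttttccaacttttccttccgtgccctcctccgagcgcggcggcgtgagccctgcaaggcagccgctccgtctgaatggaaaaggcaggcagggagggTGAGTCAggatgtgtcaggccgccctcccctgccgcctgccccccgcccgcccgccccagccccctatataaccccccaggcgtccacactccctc
IL1B (chr2:112836780-112837029, minus strand): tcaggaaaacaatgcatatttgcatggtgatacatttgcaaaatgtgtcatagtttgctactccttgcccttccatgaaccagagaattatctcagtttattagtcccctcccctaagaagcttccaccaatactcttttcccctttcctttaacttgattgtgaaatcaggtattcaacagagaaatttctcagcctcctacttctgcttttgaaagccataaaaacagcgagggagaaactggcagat
The capitals in IL6 are 1 stretch in which 2 NF-kB matches on opposite strands overlap. IL32 held 2 NF-kB stretches, the first of them likewise 2 overlapping matches. The capitals in IL1A and IL11 are AP-1 matches, and IL1B held neither motif. NF-kB letters were thus found in 2 of the 6 genes and AP-1 letters in 3 (IL11, IL1A and IL1RN). The listed IL1RN start lay 18656 bases inside the gene. Of 35116 RefSeq windows of the same length, 22.6% held NF-kB letters and 6.57% AP-1 letters. C/EBP letters were found in IL6, IL1A and IL1B and in 33.2% of all windows. Among the genes that rose, IL6 and IL32 held NF-kB letters, IL1A held AP-1 letters and IL1B held neither, so none of the 3 motifs was common to the 4 windows. At the second listed starts, IL32 held no match and IL1A held 2 AP-1 matches and 1 C/EBP match. Matches are a description of letters, not of binding.

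Among IL6, IL11 and LIF, IL6 was the gene that rose. IL6, the founding ligand and an inducer of the acute-phase response, had 0.589, 0.549 and 0.550 CPM in control replicates 1, 2 and 3 and 4.81, 5.44 and 4.51 CPM in PS-MP replicates 1, 2 and 3. The controls were almost alike, and the lowest PS-MP library stood 7.66 times above the highest control. IL6 had a log2 fold change of 3.12 ± 0.24 (SE), with a 95% interval of 5.98-fold to 12.6-fold and an adjusted p of 7.01e-05. In reads these were 10, 12 and 12 counts against 83, 97 and 85, so the controls were well above the level of 3 counts but rested on few reads. IL6 lies on chromosome 7 at 22725884 to 22732002 (GRCh38, plus strand).

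LIF, which holds stem cells undifferentiated and is often secreted by carcinoma lines, was more abundant than IL6 per kilobase of exon (17.8 ± 1.81 against 0.272 ± 0.0111 CPM per kb in the controls). It had 66.5, 66.5 and 79.0 CPM in the controls and 76.0, 92.9 and 60.9 CPM with PS-MPs. The groups overlapped: PS-MP replicate 2 was the highest of the 6 libraries and PS-MP replicate 3 the lowest. LIF had a log2 fold change of 0.12 ± 0.15 (SE) and an adjusted p of 0.686, and the interval of 0.863-fold to 1.36-fold lies wholly below that of IL6. Its direction turned without PS-MP replicate 2 (log2 fold change −0.051, adjusted p = 0.879), and with both replicate 3 libraries left out it was called higher (0.34, adjusted p = 0.0167), a setting in which 26.6% of genes are called, 13.5% as higher. LIF lies on chromosome 22 at 30240453 to 30246759.

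IL11, a ligand linked to fibrosis and to epithelial repair, was low. It had 16, 12 and 45 counts in control cells against 12, 10 and 22 in PS-MP cells, or 0.942, 0.549 and 2.06 CPM against 0.695, 0.560 and 1.17 CPM. Replicate 3 was the highest library of each group, and the groups overlapped. The fitted log2 difference, −0.55 with an SE of 0.49 and an adjusted p of 0.535, left an interval from 0.321-fold to 1.45-fold, and it became 0.15 without control replicate 3 (adjusted p = 0.881). Of the reads assigned to IL6, IL11 and LIF together, IL6 took 0.865%, 0.811% and 0.674% in the controls and 5.90%, 5.50% and 6.77% with PS-MPs, so LIF remained the bulk of the 3 in every library.

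The agonists of the IL-1 receptor rose from a very low level. IL1A, whose protein acts as an alarm signal when cells are damaged, had 4, 8 and 1 counts in the controls and 39, 44 and 33 with PS-MPs. In CPM these were 0.236, 0.366 and 0.0458 against 2.26, 2.47 and 1.75. Control replicate 3 was below the level of 3 counts, and every PS-MP library stood at least 4.79 times above the highest control. On the log2 scale the rise was 3.29 ± 0.46 (SE, adjusted p = 0.00131), with an interval from 4.81-fold to 19.9-fold. The value depended on which controls were used: it was 2.78 without control replicate 3 and 3.98 without control replicate 2, with adjusted p of 0.00368 and 0.00181.

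IL1B, the secreted agonist that caspase-1 matures, had 10, 11 and 2 counts in the controls against 34, 49 and 59 with PS-MPs. Its levels were 0.589, 0.503 and 0.0916 CPM in the controls and 1.97, 2.75 and 3.13 CPM with PS-MPs, so that control replicate 3 was again the lowest library and below 3 counts. The groups did not overlap, the lowest PS-MP library being 3.34 times the highest control. The log2 fold change was 2.75 ± 0.45 (SE, adjusted p = 0.00337) and was 2.26 without control replicate 3 (adjusted p = 0.00609) and 2.11 without both replicate 3 libraries (adjusted p = 0.000918).

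IL1RN, the natural antagonist of these ligands, was not detectable in the controls and was seen in a single PS-MP library. It had 4 counts (0.224 CPM) in PS-MP replicate 2 and 0 in the 5 other libraries, where a count of 0 allows up to 3 counts per library, 0.137 to 0.177 CPM. No fold is given. Reads of the agonists IL1A and IL1B together were 14, 19 and 3 in the controls and 73, 93 and 92 with PS-MPs, against the 0 to 4 reads of the antagonist. The genes lie in 1 cluster on chromosome 2, with IL1A at 112773925 to 112784493, IL1B at 112829751 to 112836816 and IL1RN at 113099315 to 113134016 (GRCh38). From IL1A to IL1RN the table lists 9 protein-coding genes. IL36A, IL36B, IL36RN and IL1F10 had 0 counts in all 6 libraries, and IL37 and IL36G had at most 1 in any library. Among the 9 genes of the cluster, IL1A and IL1B were those with more than 4 counts in any library.

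IL18, which induces interferon-gamma in lymphocytes and is stored in epithelial cells as a precursor, was the most abundant of the 10 per length of exon. It had 143.7, 132.0 and 153.8 CPM in the controls and 180.2, 183.7 and 216.6 CPM with PS-MPs. The groups did not overlap, but the lowest PS-MP library was only 1.17 times the highest control. IL18 rose by 0.43 ± 0.11 (SE) on the log2 scale, with an interval of 1.14-fold to 1.60-fold and an adjusted p of 0.0312. The call was lost when any PS-MP library was left out (adjusted p of 0.0695, 0.0649 and 0.0502 for replicates 1, 2 and 3), without control replicate 1 (0.117) or 2 (0.145), and when libraries were scaled by their totals alone (0.0744); the log2 fold change stayed between 0.35 and 0.49 in these fits. IL18 lies on chromosome 11 at 112143253 to 112164096.

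IL32, a proinflammatory cytokine that primates have and mice lack, had 2.41, 1.92 and 2.11 CPM in the controls and 9.21, 10.8 and 8.54 CPM with PS-MPs. Each PS-MP library was at least 3.54 times the highest control, and the spread within either group was small beside that gap. IL32 rose by 2.15 ± 0.19 on the log2 scale (SE, interval 3.32-fold to 5.94-fold, adjusted p = 0.000107), from 41, 42 and 46 counts against 159, 193 and 161. IL32 lies on chromosome 16 at 3065297 to 3082192.

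Neither common gamma chain ligand was called with all libraries in the fit. IL15, which sustains natural killer and memory T cells, had 31.7, 30.9 and 35.5 CPM in the controls and 22.9, 25.2 and 35.4 CPM with PS-MPs. PS-MP replicates 1 and 2 were below every control, and PS-MP replicate 3 was level with the highest one. With all libraries the log2 fold change was −0.23 ± 0.16 (SE, adjusted p = 0.407). Without PS-MP replicate 3 it was −0.44 (adjusted p = 0.038), and without both replicate 3 libraries it was −0.38 (adjusted p = 0.00844), where 13.1% of genes are called lower. IL7, a growth factor of developing lymphocytes, had 3, 7 and 5 counts in the controls and 4, 3 and 2 with PS-MPs (0.177, 0.320 and 0.229 CPM against 0.232, 0.168 and 0.106 CPM). These values are at or near the level of 3 counts. IL7 did not pass the filter, its adjusted p with no filter was 0.736, and a difference was not detectable at this depth. IL15 lies on chromosome 4 at 141636583 to 141733987 and IL7 on chromosome 8 at 78675743 to 78805523.

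**Figure D2:**
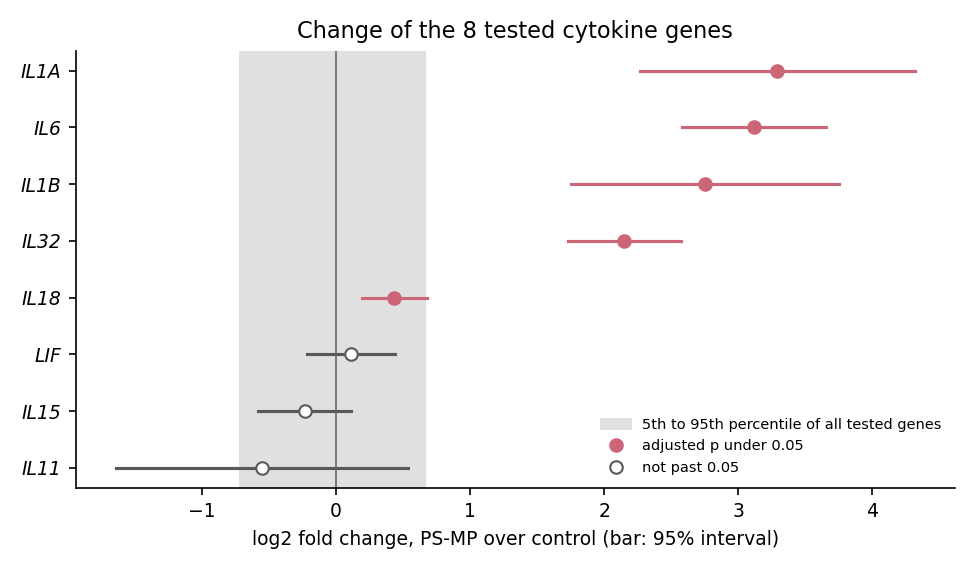
Log2 fold change of PS-MP over control cells for the 8 tested cytokine genes, with 95% intervals from the edgeR fit (n = 3 per group) and the range from the 5th to the 95th percentile of all tested genes in grey (−0.71 to 0.66). IL1A, IL6, IL1B and IL32 lie wholly to the right of the grey range, the IL18 point lies within its upper part with an interval that passes its upper end, and the intervals of LIF, IL15 and IL11 cross 0.

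Against all tested genes, 4 cytokines were near the top of the list of fold changes. IL1A ranked 1, IL6 ranked 4, IL1B ranked 6 and IL32 ranked 21 of 15458 by log2 fold change. Under every alternative but the one with no filter, IL1A ranked no lower than 8, IL6 no lower than 7, IL1B no lower than 23 and IL32 no lower than 53. With no filter, genes with a handful of reads took the top places and the ranks were 203, 452, 474 and 1232. IL1A and IL1B were themselves that low in the controls (1 to 8 and 2 to 11 counts). They met the filter in 0 and 1 control libraries, so they were ranked through the PS-MP libraries in which they are high. Their ranks are a description and no test. All 4 kept their direction and their call in each of the 16 alternatives, with a log2 fold change of 3.03 to 3.18 for IL6, 2.05 to 2.23 for IL32, 2.78 to 3.98 for IL1A and 2.11 to 3.10 for IL1B.

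**Figure D3:**
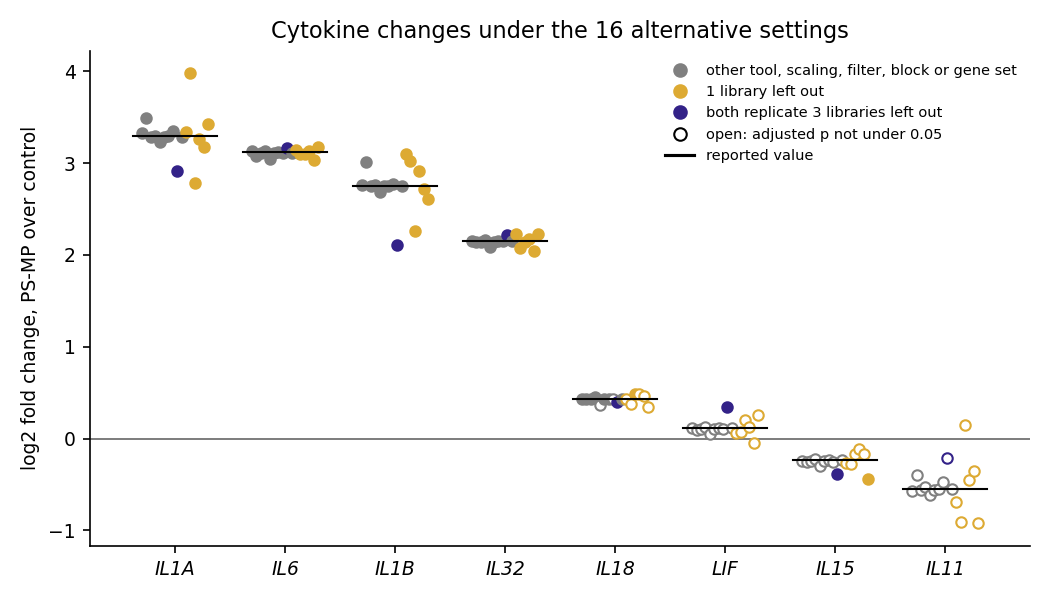
Log2 fold change of each tested cytokine gene under 16 alternative settings, with the reported value as a black line, filled points for an adjusted p under 0.05 and open points otherwise. Points for IL6 and IL32 stay close to the line, IL1A and IL1B spread with the control library left out (yellow), and IL18 turns open in 5 of the 6 fits that leave out 1 library.

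The order of the transcripts is given per kilobase of exon (CPM per kb), the length being the union of all exons annotated for the gene in GENCODE 29. This union can be longer than the transcript made (7860 bases for IL15), which would understate a level. The order therefore depends on this choice of length. In control cells IL18 was highest at 54.5 ± 4.17 CPM per kb, followed by LIF at 17.8 ± 1.81 and IL15 at 4.16 ± 0.310 (mean ± SD, n = 3). All others were below 1 CPM per kb: IL32 at 0.669 ± 0.0778, IL11 at 0.443 ± 0.294, IL6 at 0.272 ± 0.0111, IL1B at 0.127 ± 0.0858, IL1A at 0.102 ± 0.0757 and IL7 at 0.0713 ± 0.0214, with IL1RN at 0. The ranges of the 3 libraries overlapped between IL32 and IL11, IL11 and IL6, IL1B and IL1A, and IL1A and IL7. In PS-MP cells the first 3 places were unchanged at 73.6 ± 7.63, 19.3 ± 4.02 and 3.54 ± 0.848 CPM per kb. IL32 (2.97 ± 0.365) overlapped in range with IL15, and IL6 (2.38 ± 0.229) now stood above IL11 (0.302 ± 0.119). IL1A (1.02 ± 0.173) and IL1B (0.845 ± 0.191) did not differ beyond their ranges, and they too stood above IL11. IL18 and LIF together took between 83.6% and 85.9% of the reads of the 10 genes in the 6 libraries, so the genes with the largest folds made up a small part of these reads in either group.

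**Figure D4:**
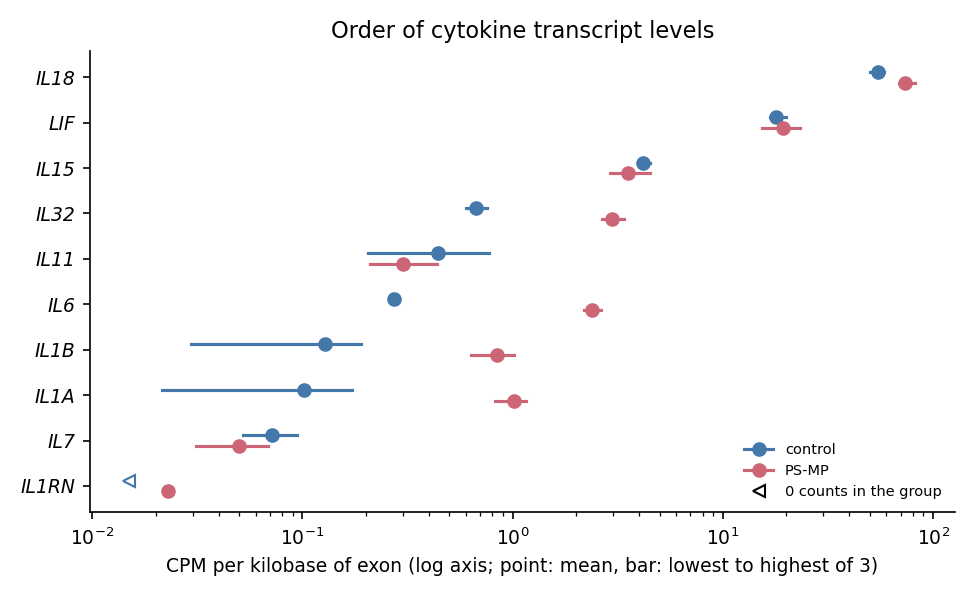
Level of the 10 cytokine transcripts in CPM per kilobase of exon on a log axis, ordered by the control mean; points are group means and bars run from the lowest to the highest of 3 libraries (IL1RN has no bar because its lowest PS-MP library was at 0). IL6, IL1A and IL1B move from below or beside IL11 to above it, while IL18, LIF and IL15 stay in the first 3 places.

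The wider pathway was read from lists of receptors, signal transducers and other cytokines, 119 genes in all, of which 66 were tested. Of these, 15 were higher and 1 lower, so 22.7% were called higher where 4.91% of all tested genes were. The median log2 fold change was 0.21 against 0.002 over all tested genes. The lists were chosen with earlier results of these data known, so these values describe the lists and are no test of them. Without both replicate 3 libraries the 15 became 26, in a setting where 13.5% of all tested genes were called higher and 13.1% lower. Each count given below for that setting is to be read beside these shares, and each edgeR count from all libraries beside 4.91% higher and 4.65% lower. The pathway genes called higher numbered 7 and 6 when controls 1 and 2 were left out in turn, and 5 and 8 when PS-MP libraries 1 and 2 were.

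Most receptors for the IL-6 family were present, and none was called. Of the 7 tested receptor genes edgeR called 0 in either direction; 3 had an unadjusted p under 0.05, all higher, and DESeq2 and limma-voom also called 0. IL6ST, which encodes gp130, averaged 149.2 ± 10.8 CPM in control cells and 160.4 ± 27.9 CPM in PS-MP cells (adjusted p = 0.678), and IL6R, the ligand-binding chain for interleukin-6, at 25.8 ± 4.76 and 22.5 ± 1.14 CPM (adjusted p = 0.42). LIFR stood at 18.3 ± 2.09 and 18.8 ± 5.13 CPM, and IL11RA at 0.595 ± 0.165 and 0.493 ± 0.424 CPM. IL11RA thus rested on few reads, with 1 count in PS-MP replicate 2, and CNTFR had at most 1 count in any library and was not tested. OSMR, the oncostatin M receptor, stood at 287 ± 21.2 and 358 ± 22.7 CPM (adjusted p = 0.0823). Without both replicate 3 libraries 2 of 6 tested receptors were called higher.

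Most further ligands of the IL-6 family were scarce, but CLCF1 was not. Per kilobase of exon CLCF1 stood above IL6 in controls (5.60 against 0.272 CPM per kb) and with PS-MPs (7.63 against 2.38 CPM per kb). Of 7 genes 3 were tested, and EBI3, a soluble receptor-like subunit shared by interleukins 27 and 35, rose 3.46-fold (1.48 ± 0.637 against 5.18 ± 0.325 CPM, adjusted p = 0.00263) and kept its call in all 6 fits that left out 1 library. IL27, which encodes its partner in interleukin-27, had 0 counts in every library. CLCF1, a neurotrophic ligand, stood at 11.1 ± 1.42 and 15.1 ± 3.86 CPM (adjusted p = 0.2). Without both replicate 3 libraries 2 of the 3 were called higher.

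Downstream of gp130, 3 of 9 JAK-STAT components and 3 of 9 tested STAT3 target and feedback genes were higher and none was lower. Over all tested genes 4.91% were higher and 4.65% lower. Without both replicate 3 libraries 3 JAK-STAT components and 6 STAT3 target and feedback genes were higher, with 0 lower. STAT5A rose 2.21-fold at a low level (1.99 ± 0.413 against 4.43 ± 0.798 CPM, adjusted p = 0.0122), though reads may be shared with its overlapping and closely related neighbour STAT5B. STAT3, the main transducer of IL-6, rose 1.31-fold (225 ± 24.7 against 294.4 ± 14.5 CPM, adjusted p = 0.0479). The transcription factor genes CEBPB and JUNB rose 1.29-fold and 1.30-fold (adjusted p = 0.0302 and 0.0344). SOCS3, the feedback inhibitor that IL-6 signalling induces, stood at 16.2 ± 0.282 and 21.1 ± 2.01 CPM and did not pass (adjusted p = 0.0806). None of the calls of STAT5A, STAT3, CEBPB and JUNB held in every fit that left out 1 library. The call of STAT5A ended when replicate 1 of either group was left out (adjusted p from 0.0526 to 0.0688). STAT3 was called in the fit without PS-MP replicate 3 and in no other of the 6 (0.0921 to 0.181), while CEBPB and JUNB needed replicates 1 and 2 of both groups (0.0921 to 0.153 and 0.104 to 0.168). STAT3, CEBPB and JUNB were also not called with scaling by totals (adjusted p of 0.0871, 0.0829 and 0.0796). Neither was STAT3 with RLE scaling (0.0504), nor CEBPB and JUNB with no filter (0.0529 and 0.0634). With the replicate block none of these genes was called (0.0515 to 0.137).

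On the IL-1 side, no tested receptor was called, and 4 genes of precursor processing and release were higher. Of 6 tested receptor and decoy genes edgeR called 0, with 0 at an unadjusted p under 0.05, and DESeq2 and limma-voom called 0. IL1R1, the signalling receptor, stood at 41.5 ± 2.29 and 42.7 ± 5.52 CPM (adjusted p = 0.865), the decoy receptor IL1R2 at 1.88 ± 0.166 and 2.41 ± 0.195 CPM (adjusted p = 0.377), and IL18BP, which binds and blocks interleukin-18, at 4.61 ± 0.935 and 3.4998 ± 0.0967 CPM (adjusted p = 0.282). Without both replicate 3 libraries 1 of these 6 genes was called lower.

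Of 13 processing and release genes 6 were tested and 4 were higher, where 4.91% of all tested genes were higher. CASP1, the protease that matures interleukin-1 beta and interleukin-18, had 1.24, 1.55 and 1.51 CPM in the controls and 3.76, 4.32 and 5.99 CPM with PS-MPs. The groups did not overlap, and the rise was 3.25-fold (adjusted p = 0.00169), although its neighbour CARD16 encodes a near-identical protein segment and may share reads with it. GSDME, a pore-forming gasdermin, rose 1.56-fold (28.5 ± 4.24 against 44.4 ± 1.79 CPM, adjusted p = 0.00909). NINJ1, which ruptures the membrane of dying cells, rose 1.45-fold (adjusted p = 0.0336), and CASP4, the caspase that senses bacterial lipopolysaccharide in the cytosol, was called higher as well (log2 fold change 0.58, adjusted p = 0.0386). CASP1 and GSDME kept their calls in all 6 fits that left out 1 library. NINJ1 was no longer called once controls 2 or 3 or PS-MP libraries 1 or 2 were dropped (0.0617 to 0.13), and CASP4 kept its call in the fit without control replicate 1 alone (0.0678 to 0.12 in the others). GSDMD, the gasdermin that caspase-1 cleaves, stood at 9.70 ± 1.23 and 10.3 ± 0.859 CPM (adjusted p = 0.772), the inflammasome adaptor PYCARD at 0.137 ± 0.121 and 0.334 ± 0.0147 CPM, near the level of 3 counts, and the sensor NLRP3 had 0 counts in all 6 libraries.

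For the gamma chain cytokines, 2 of 14 further genes were tested. IL15RA, which presents interleukin-15 to neighbouring cells, stood at 1.70 ± 0.205 and 1.94 ± 0.35 CPM (adjusted p = 0.709), and neither it nor IL4R was called by edgeR, DESeq2 or limma-voom (0 at an unadjusted p under 0.05). Without both replicate 3 libraries 1 of the 2 was called higher. IL2RG, the gamma chain itself, was below the level of 3 counts in every library. Among 21 other interleukins 8 had 0 counts in all libraries and 3 were tested. CXCL8, interleukin-8, the neutrophil attractant, was the 1 that rose, with 125.1, 131.4 and 99.4 CPM in the controls and 275.7, 361.5 and 400.9 CPM with PS-MPs (2.92-fold, adjusted p = 0.000195, called in all 6 fits that left out 1 library). IL12A and IL23A, subunits of heterodimeric interleukins, did not pass (adjusted p = 0.596 and 0.598).

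**Figure D5:**
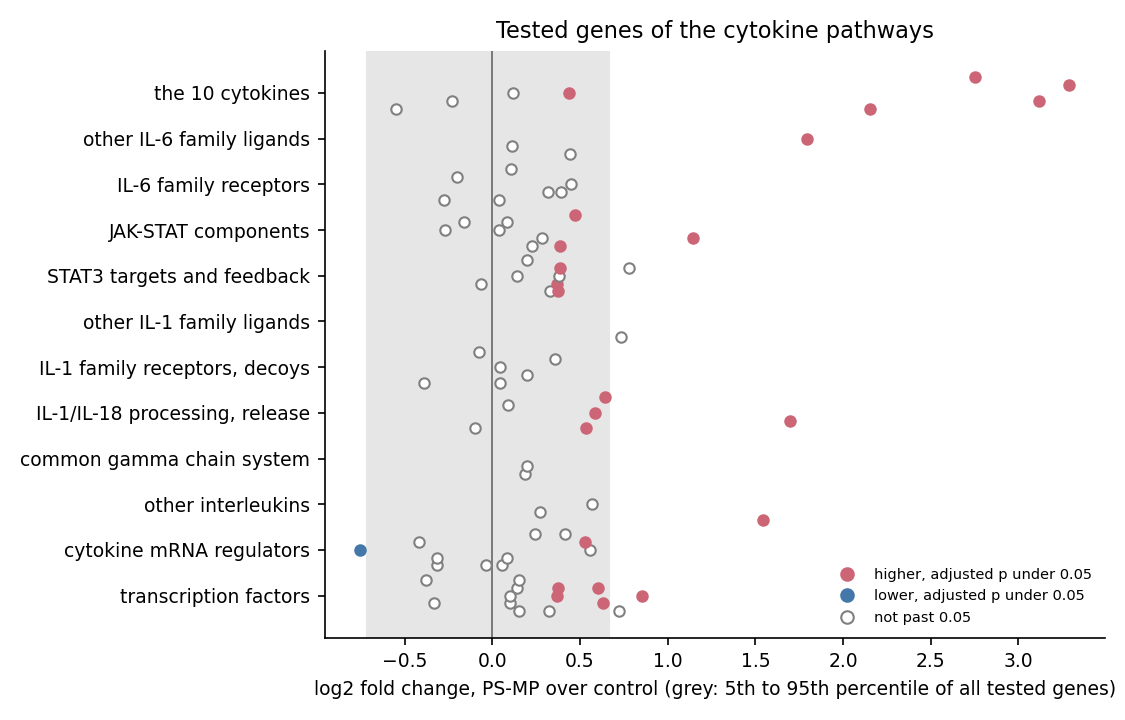
Log2 fold change of PS-MP over control for every tested gene of the cytokine lists, 1 point per gene, filled where the adjusted p was under 0.05; grey spans the 5th to the 95th percentile of all tested genes. The called genes lie to the right of 0 in every list but the mRNA regulators, which hold the 1 gene that was lower, and no receptor list holds a called gene.

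Some cytokine genes overlap other genes in the table. IL6 overlaps STEAP1B and IL6-AS1, both on the opposite strand. STEAP1B had 7, 15 and 19 counts in the controls, where IL6 had 10, 12 and 12, and 11, 11 and 9 with PS-MPs (log2 fold change −0.21, adjusted p = 0.79), and IL6-AS1 had 1 count in PS-MP replicate 1 and 0 elsewhere. LIF overlaps LIF-AS1 and LIF-AS2, with at most 6 and 29 counts per library. No gene with a count overlaps IL1A, IL1B, IL32, IL18, IL11 or IL15 in the table. IL7, with 2 to 7 counts per library, overlaps 4 genes with counts. ZC2HC1A on the opposite strand had 150 to 201 counts per library, and the pseudogene THAP12P7 on the same strand had 7 to 14. C4orf46P3, also on the same strand, had at most 6 counts, and a long non-coding RNA on the opposite strand at most 2. The library kit keeps strand, but the strand setting of the counting is not given in the sources used here.

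Cytokines are made by many cell types, so markers of other cells were summed. Of 12 leukocyte markers 2 were tested and 0 called by edgeR, DESeq2 or limma-voom (0 at an unadjusted p under 0.05). Their summed level was 20.7 to 25.6 CPM in the controls and 25.6 to 39.1 CPM with PS-MPs, nearly all of it from CD14 (22.3 ± 2.40 and 28.6 ± 6.81 CPM). PTPRC, which encodes the pan-leukocyte antigen CD45, was below the level of 3 counts in every library, and TYROBP, CD3D, CD3E and MS4A1 had 0 counts. Others held reads: ITGAM stood at 0.719 ± 0.303 and 1.10 ± 0.334 CPM (adjusted p = 0.381). CSF1R, not tested, stood at 0.183 ± 0.183 and 0.443 ± 0.0763 CPM, with the PS-MP libraries above the controls. CD79A and NKG7 had up to 8 and 7 counts in a library. The 8 fibroblast markers summed to 7.65 to 9.87 CPM and 11.2 to 15.8 CPM, with COL1A2 at 0 counts and DCN, a matrix proteoglycan, higher (2.16-fold, adjusted p = 0.0245, and 0.0518 to 0.0784 when any control or PS-MP replicate 1 was dropped). COL1A1 (2.42 ± 0.393 and 2.76 ± 0.134 CPM), LUM (2.40 ± 0.264 and 3.48 ± 1.04 CPM) and PDGFRA (0.761 ± 0.344 and 0.837 ± 0.134 CPM) were present and not called. The 5 endothelial markers summed to 0.275 to 1.06 and 0.695 to 1.01 CPM. The part of these markers in the cytokine values was not tested.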

How the data were processed

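The deposited table held whole-number counts per Ensembl gene, as the authors made them, 1 column per library. Build GRCh38 and, without role or version, DESeq2, RSEM, StringTie, HISAT2 and fastp are listed per the submitters' processing notes, and the deposited name carries featureCounts; strand setting and annotation release are not given in the sources used here. The fit used edgeR 4.0.16 in R 4.3.3: filterByExpr on the group (15458 genes), TMM, robust quasi-likelihood F test, PS-MP against control, two-sided, Benjamini-Hochberg over all tested genes at 0.05. The standard error comes from the log2 fold change and its F statistic, and the 95% interval from it. The common biological coefficient of variation was 0.138. The level of 3 counts covers counting error alone. Exon lengths, the union of all annotated exons of a gene in GENCODE 29, matched 92.9% of gene IDs. Members and lists were chosen with earlier results of these data known. Named are all 10 cytokines, up to 3 called genes per list with the smallest adjusted p, genes that overlap a cytokine, and further examples picked with their values in view. Alternatives were DESeq2 1.42.0, limma-voom (limma 3.58.1), scaling by totals, RLE or upper quartile, a minimum mean of 10 counts or no minimum, the replicate block, each library left out, both replicate 3 libraries left out and protein-coding genes alone. The fit was tested on simulated counts. The result of 1 pathway gene is not reported here.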

Additional observations from a re-analysis of the deposited data

How the results depend on the processing

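IL6, IL1A, IL1B and IL32 kept their direction and call in all 16 alternatives. The count of cytokines called higher was 4 to 6, while the share of all tested genes called in either direction ran from 4.81% to 26.6%. The count of 6 came without both replicate 3 libraries, where 13.5% of all tested genes were called higher. With 1 library left out, the log2 fold change of IL11 ran from −0.92 (without PS-MP replicate 3) to 0.15 (without control replicate 3) and that of LIF from −0.051 (without PS-MP replicate 2) to 0.26 (without PS-MP replicate 3), so both changed direction. With both replicate 3 libraries left out, 2093 genes were higher and 2036 lower, 1 cytokine (IL15) was lower, and 26 pathway genes were higher and 6 lower. Leaving out 1 library gave 356 to 885 genes higher and 415 to 811 lower, 0 to 1 cytokine lower, and 5 to 17 pathway genes higher and 0 to 1 lower. Pathway genes called lower numbered 2 with total counts only and 2 with no filter. The labels do not say whether equal replicate numbers pair the libraries. Correlations of deviations from the group means were −0.09, −0.11 and −0.18, which with 3 libraries per group cannot settle it. With the replicate block 333 genes were higher, 417 lower and 5 pathway genes higher (CASP1, CXCL8, EBI3, GSDME and JUN). IL18 was then not called (adjusted p = 0.0782) and the other 4 cytokines were. With no filter IL1RN and IL7 had adjusted p of 0.37 and 0.736. Depth limits IL1A and IL1B in the controls and IL7 and IL1RN in all libraries; the cause of these shifts was not tested.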

Other observations

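Regulators that act on cytokine genes and their mRNAs were also read. Of 14 transcription factor genes known to act on cytokine promoters 5 were higher and 0 lower by edgeR (0 lower at an unadjusted p under 0.05, and 0 by DESeq2 or limma-voom). Over all tested genes edgeR called 4.91% higher and 4.65% lower. Without both replicate 3 libraries 8 were higher and 2 lower, where 13.5% of all tested genes were called higher and 13.1% lower. JUN, a subunit of AP-1, rose 1.81-fold (14.4 ± 1.69 against 26.1 ± 2.14 CPM, n = 3 per group, adjusted p = 0.00227), IRF1, a factor of interferon responses, 1.55-fold (adjusted p = 0.0119) and RELB, an NF-kB subunit, 1.52-fold (adjusted p = 0.0272). JUN kept its call in all 6 fits that left out 1 library, whereas IRF1 and RELB needed replicates 1 and 2 of both groups (0.0555 to 0.0676 and 0.0754 to 0.12 when 1 of these was dropped).

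Among 11 regulators of cytokine mRNA decay and translation, 1 was higher and 1 lower by edgeR, where 4.91% of all tested genes were higher and 4.65% lower. DESeq2 called 2 higher and 1 lower, and without both replicate 3 libraries 3 were higher and 3 lower. ZFP36, which destabilises AU-rich cytokine mRNAs, rose 1.44-fold (31.6 ± 2.79 against 45.6 ± 0.656 CPM, adjusted p = 0.0101). HNRNPD, which binds the same kind of element, was 1.69-fold lower (180.4 ± 47.7 against 107 ± 4.44 CPM, adjusted p = 0.0137), with 235 CPM in control replicate 3 against 161 and 146 CPM in the other controls. ZFP36 was not called once controls 1 or 2 or PS-MP library 1 were dropped (0.0539 to 0.0666), nor HNRNPD once PS-MP libraries 1 or 2 were (0.0565 to 0.0668).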
